A study of Mus musculus with 6 samples.

Results

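A total of 502 cone bipolar cells expressing combinations of Kcng4, Htr3a, Sox6, Neurod2, Cdh9 and Epha7 were found among 38569 retinal cells of 6 single-cell RNA-seq samples. The cells were selected on their own unique molecular identifier (UMI) counts. A barcode was kept when it had 500 to 5000 detected genes and at most 20% of its UMIs from mitochondrially encoded genes, and a kept cell was a member when at least 3 of the 6 marker genes were detected and Sebox, Grik1, Tfap2b and Arr3 had 0 UMIs. Those 10 genes chose the cells, so their values below are descriptions and were not tested.

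The samples were mouse retinas collected at postnatal day 17. In oxygen-induced retinopathy (OIR), a model in which hyperoxia stops retinal vessel growth and the return to room air leaves the vessel-poor retina hypoxic, the pups had been kept in 75% oxygen from day 7 to day 12 and then in normoxia for 5 days. Control (Ctrl) mice of the same age stayed in normoxia. Each group had 3 samples of 2 pooled mice, and no strain, genotype or engineered allele was named for either group. The labels gave the source as retinal endothelial cells, whereas the members held almost no endothelial RNA. The summed level of 7 endothelial markers was at most 32.2 CPM (counts per 1000000 UMIs of the summed cells) in any sample, and Cdh5 and Tek had no UMI in any member.

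Bipolar cells carry signals from photoreceptors to the amacrine and ganglion cells of the inner retina. ON bipolar cells sense photoreceptor glutamate through the receptor Grm6, whose G protein controls the channel Trpm1, whereas OFF bipolar cells use ionotropic receptors such as Grik1. Cone bipolar cells that express the potassium channel subunit Kcng4 are ON types that stratify in the middle of the inner plexiform layer and belong to the type 5 group, and Htr3a encodes a serotonin-gated ion channel carried by some of them.

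The OIR samples contributed 132, 35 and 41 members (replicates 1 to 3) and the Ctrl samples 216, 39 and 39. Both replicate 1 samples held more UMIs over all barcodes, 37872383 and 42606878 against 15788524 to 25061712 in the other four, and together they held 348 members (69.3%). They also held more bipolar cells. By the separate rule on bipolar genes used below, bipolar cells were 1677 of 6056, 392 of 5502 and 463 of 7470 kept cells in OIR and 2431 of 7146, 349 of 5371 and 345 of 7024 in Ctrl. The members' median depth per cell was 8563, 9700 and 9555 UMIs in OIR and 6783, 8512 and 6657 in Ctrl. No member barcode occurred in more than 1 library. Xist in the members was at 4130 and 3370 CPM in Ctrl replicates 2 and 3 and at 0 in the other four samples, which carried Y-linked RNA at 233 to 298 CPM. All OIR samples and Ctrl replicate 1 were therefore from males and the other 2 Ctrl samples from females, so sex and group were partly confounded. The confounding was complete wherever Ctrl replicate 1 was left out below, as in replicates 2 and 3 alone.

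The members matched the bipolar class on genes that the rule did not use. Of the 502, 497 had at least 3 of the 10 bipolar genes of the separate rule. That rule also asks for no Tfap2b or Arr3, which every member met by its selection. Isl1, a transcription factor of ON bipolar cells, was detected in 90.2% to 97.2% of the members of each sample, and Grm6 in 71.4% to 83.3%. Prkca, the classical rod bipolar marker, was detected in 5.13% to 14.4% of the members and in 17.2% to 32.5% of the other kept cells. The lists for microglia and pigment epithelium summed to at most 26.4 and 19.0 CPM in any sample. The 8 ganglion cell genes summed to 17.1, 16.4 and 8.21 CPM in OIR and to 76.4, 74.9 and 35.1 CPM in Ctrl, without overlap. Thy1 was the most abundant of them, and the defining genes Slc17a6, Pou4f1, Pou4f2 and Sncg had no UMI in any member. The 4 red cell genes summed to 5.69, 13.1 and 2.74 CPM against 40.3, 20.4 and 13.2 CPM, also without overlap, Hbb-bs being the most abundant. No gene of these 4 lists passed the filter on low counts, and the part of this RNA in the comparisons below was not tested.

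The cells just outside the marker threshold were largely of the same class. Of the cells with 0 UMIs of the exclusion genes, 248 had exactly 2 markers detected and 119 had exactly 3. By the separate bipolar rule, 82.7% of the former and 96.6% of the latter were bipolar cells, and Isl1 stood at 664 and 788 CPM. A further 239 kept cells had 3 or more markers but were left out through an exclusion gene. They numbered 109, 15 and 17 in the OIR samples and 79, 6 and 13 in the Ctrl samples. Their part in the shares of members given below was not tested.

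Among the marker genes, Kcng4 was at 296, 187 and 211 CPM in OIR and at 260.3, 272 and 285 CPM in Ctrl. Htr3a was at 139, 91.8 and 82.1 CPM in OIR and at 182, 74.9 and 105 CPM in Ctrl, and Sox6, a transcription factor, ranged from 170.2 to 309.6 CPM over all samples. The groups overlapped for these 3 genes. For the other 3 markers every OIR value lay below every Ctrl value, which was so for 5.71% of all genes tested, but nothing is read from this count because these genes chose the cells. Neurod2, a neuronal transcription factor, was at 187, 151 and 139.5 CPM in OIR and at 228, 276 and 255 CPM in Ctrl. Cdh9, an adhesion molecule of type 5 cells, was at 187, 170.5 and 197 against 199, 259 and 241 CPM. Epha7, an ephrin receptor, was at 499, 387 and 512 against 639, 909 and 659 CPM. Kcng4 was detected in 71.8% to 85.4% of the members of a sample and in 0.601% to 3.97% of the other kept cells.

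Beyond the markers, several genes stood at higher levels in the members than in the other bipolar cells of the same samples. They are described here without a test because the cells were chosen on their RNA. Nfia, a transcription factor, averaged 1542 ± 357 CPM (SD, n = 6 samples) in the members and 152 ± 28.1 CPM in the other bipolar cells. Meis2, a homeobox factor, averaged 738 ± 197 against 66.6 ± 14.6 CPM. Hpca, a neuronal calcium sensor, averaged 149 ± 24.9 against 12.1 ± 3.26 CPM, and Pcsk2, a prohormone convertase, 188 ± 41.7 against 23.4 ± 4.45 CPM. Each of these was higher in the members in all 6 samples. Several rod bipolar genes were lower in all 6, including Prkca at 15.0 ± 4.82 against 1117 ± 153 CPM and Car8 at 13.1 ± 10.1 against 655 ± 155 CPM. Trpm1 was lower in the members as well, at 566 ± 204 against 2282 ± 645 CPM, whereas Cabp5, a calcium-binding protein of several bipolar types, was higher, at 1119 ± 217 against 727 ± 103 CPM. By class, Trpm1 was at 2951 to 4414 CPM in rod bipolar cells and at 152 to 306 CPM in OFF cone bipolar cells. The members, at 320.0 to 844 CPM, lay between them.

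The members were not uniform. Both Htr3a and Sox6 were detected in 214 of them (42.6%), Htr3a alone in 72 (14.3%), Sox6 alone in 115 (22.9%) and neither in 101 (20.1%). Members with neither made up 21.2%, 22.9% and 24.4% of the members in OIR and 12.5%, 43.6% and 28.2% in Ctrl, and the groups overlapped. Over 6121 genes with at least 60 UMIs in these 2 subsets together, 342 were higher in the Htr3a and Sox6 cells in all 6 samples and 385 were lower in all 6. These counts describe subsets that were split on their RNA and carry no test.

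Grm6, Pcp2 and Gng13 of the ON pathway were higher in the cells with Htr3a and Sox6 in all 6 samples. They were picked after their values were seen, and the list of ON cascade genes used below was not counted between the subsets. Summed over samples, Grm6 stood at 1139.6 CPM in the cells with both and at 316 CPM in the cells with neither, and Pcp2, a regulator of the ON bipolar G protein, at 1463 and 379 CPM. Gng13, the gamma subunit of that G protein, stood at 2434 and 759 CPM. The clock output factor Hlf was at 1116 against 167 CPM, and Drd2, a dopamine receptor, at 95.0 against 8.19 CPM. Gsg1 was higher in the cells with neither, at 815 CPM against 23.9 CPM in the Htr3a and Sox6 cells. Kirrel3, a synaptic adhesion molecule, was higher there too, at 236 against 4.52 CPM. The homeobox gene Irx3 stood at 181 against 1.29 CPM, and Vsx1, a cone bipolar transcription factor, at 81.9 against 0 CPM. Lrrtm1, which is known as a marker of a type 5 subtype, stood at 287 against 33.6 CPM. Kcng4 stood at 248 CPM in the cells with neither and at 257 CPM in the cells with both. Nothing is read from this, because Kcng4 was used to choose the cells. Cabp5, which the rule did not use, did not separate the subsets, at 1224 and 1208 CPM. Chrm2 and Slitrk5, which mark other type 5 subtypes, stayed at or below 20.4 and 6.81 CPM in the members of every sample. Chrm2 was higher in the cells with neither Htr3a nor Sox6 in all 6 samples, at 24.6 against 1.29 CPM over all samples.

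**Figure D1:**
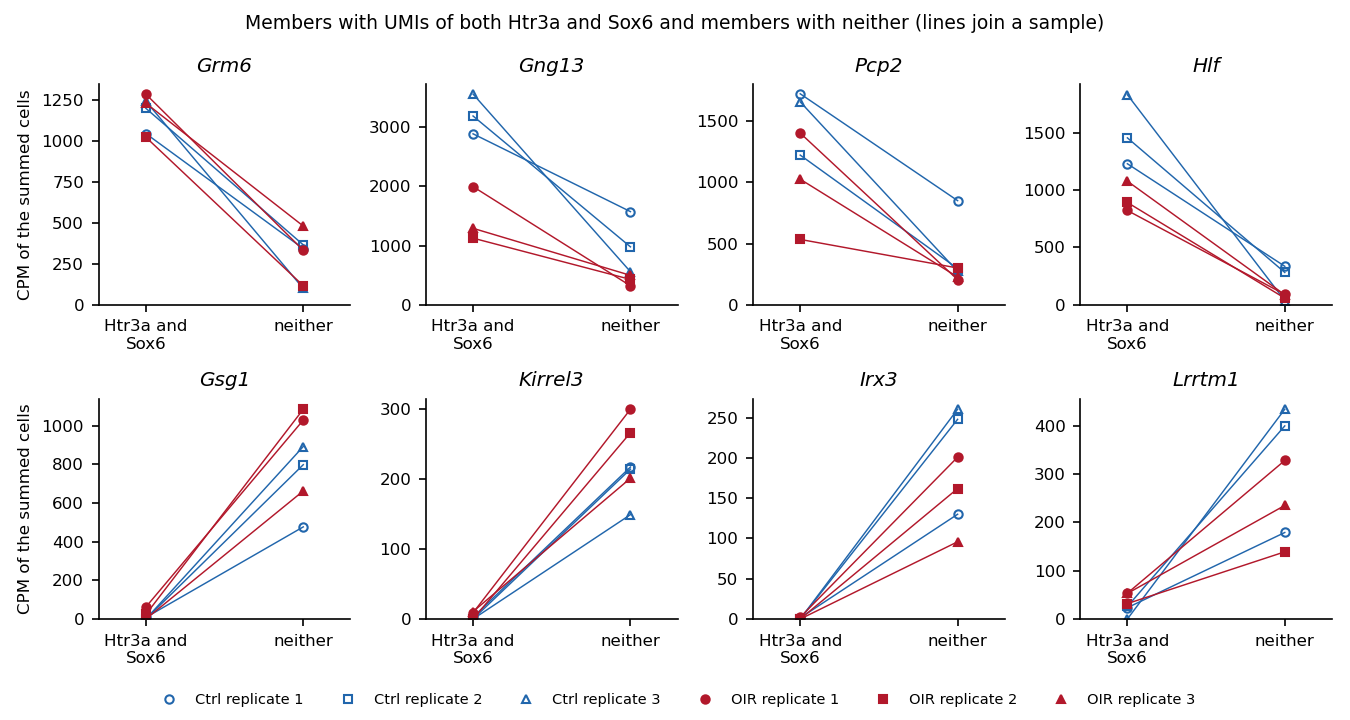
Levels of 8 genes (y axis, CPM of the summed cells) in members with UMIs of both Htr3a and Sox6 and in members with neither, with a line joining the values of each sample (red filled, OIR; blue open, Ctrl; symbols, replicates). In all 6 samples the top 4 genes were higher in the cells with both and the bottom 4 were higher in the cells with neither.

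The first comparison asked whether the members took a different share of the retinal cells after OIR. They made up 2.18%, 0.636% and 0.549% of the kept cells in OIR and 3.02%, 0.726% and 0.555% in Ctrl. The 95% Wilson intervals, which cover counting error only, were 1.84% to 2.58% and 2.65% to 3.45% for the replicate 1 samples and lay between 0.405% and 0.991% for the other four. Both replicate 1 samples were high, and the groups overlapped. The difference of −0.313 percentage points did not pass an exact two-sided permutation test (p = 0.600, n = 3 per group), in which the smallest p that 3 against 3 samples allow is 0.1. Without Ctrl replicate 1 the difference was 0.481 points, with the OIR mean higher (exact permutation p = 1.00). Of the OIR samples, replicate 1 alone, at 2.18%, lay above both remaining Ctrl samples. Of the bipolar cells, the members were 7.75%, 8.67% and 8.86% in OIR and 8.84%, 11.2% and 11% in Ctrl (exact permutation p = 0.200), and when each bipolar cell was thinned to 2000 UMIs these shares averaged 5.59 ± 0.735% and 5.43 ± 0.513% (SD, n = 3; exact permutation p = 1.00).

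**Figure D2:**
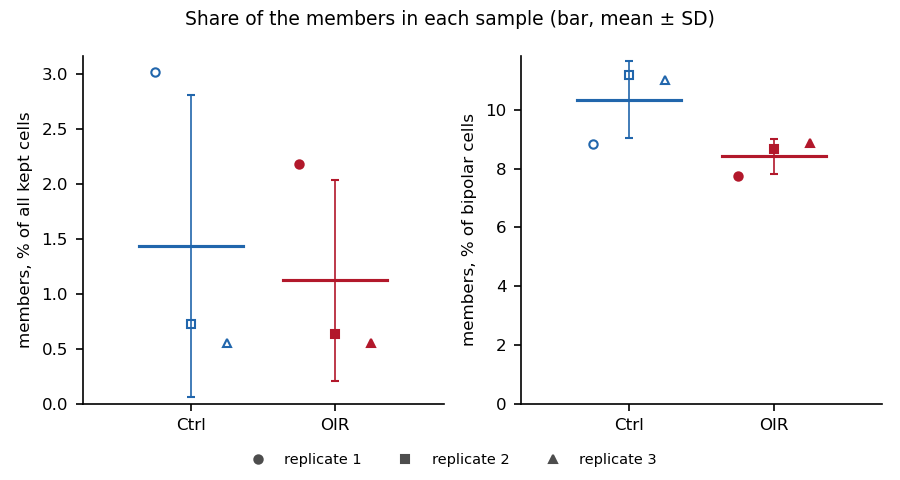
Members as a percentage of all kept cells (left y axis) and of bipolar cells (right y axis) in each sample, with the mean and SD of each group. Replicate 1 of both groups stands above 2% of all kept cells, against at most 0.726% in the other samples, and the groups overlap in both panels.

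The second comparison was between OIR and Ctrl expression in the members, with UMIs summed per sample. Of 5712 genes tested by edgeR's quasi-likelihood test, 4 were called higher in OIR (0.0700%) and 7 lower (0.123%) where the p adjusted by Benjamini and Hochberg was under 0.05 and the fold change exceeded 0.25 on the log2 scale. An unadjusted p under 0.05 was reached by 495 genes. The values of the groups did not overlap for 8.12% of the genes tested with OIR higher and for 5.71% with OIR lower. The lactate exporter gene Slc16a3, the hypoxia-responsive gene Ndrg1, the chromatin protein gene Hmgb2 and the cytoplasmic actin gene Actg1 rose. The genes that fell were Lrtm1, the neuropeptide gene Gal, the anti-apoptotic gene Faim2, the contactin gene Cntn4, the ON bipolar G protein gene Gng13, the deubiquitinase gene Usp29 and Nrsn1, which encodes a neuronal vesicle protein.

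Lrtm1 (chr14:29018208-29033645, GRCm38, plus strand) encodes a leucine-rich repeat transmembrane protein of bipolar cells. It was at 55.9, 59.0 and 49.2 CPM in OIR and at 408, 272 and 154 CPM in Ctrl. The 3 OIR samples lay close together and far below the Ctrl samples, which spread widely. The log2 fold change was −2.46 ± 0.31 (SE, adjusted p = 0.00548, edgeR), and the call held in all 18 alternative settings. The gene lies within Cacna2d3 on the opposite strand, a subunit gene that stood at 16.4 to 64.6 CPM in the members and was not tested.

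Gal (chr19:3409915-3414544, minus strand) encodes galanin, an inhibitory neuropeptide. The members held 4, 3 and 0 Gal UMIs in OIR (3.79, 9.84 and 0 CPM) and 72, 19 and 31 in Ctrl (50, 64.7 and 136 CPM). The 0 UMIs of OIR replicate 3 allow a level of up to 8.21 CPM by a floor of 3 counts. The fitted log2 fold change was −4.12 ± 0.58 (adjusted p = 0.00548, edgeR) and rests on 7 UMIs in OIR. By cell, Gal was detected in 4 of 132, 3 of 35 and 0 of 41 members in OIR, the last of which allows a share of cells with a Gal UMI, not of cells expressing Gal, of up to 7.32% by the same floor (8.57% by the 95% Wilson interval), and in 22 of 216, 7 of 39 and 8 of 39 members in Ctrl. It was seen in at most 0.245% of the other kept cells of any sample. Of the 44 members with Gal, 42 also had a UMI of Htr3a or Sox6, and no member in OIR had more than 1 Gal UMI, against up to 17 in Ctrl.

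Faim2 was at 35.1, 26.2 and 49.2 CPM in OIR and at 168, 98.7 and 141 CPM in Ctrl, with a log2 fold change of −1.97 ± 0.28 (adjusted p = 0.00548, edgeR). Cntn4 was at 20.9, 13.1 and 13.7 CPM against 84.0, 54.4 and 43.9 CPM, with a log2 fold change of −1.98 ± 0.34 (adjusted p = 0.0353, edgeR). Neither gene had overlapping groups. Usp29 and Nrsn1 fell by 1.38 and 1.75 on the log2 scale (both adjusted p = 0.0441, edgeR), from Ctrl means of 94.1 and 64.1 CPM. The call of Faim2 was lost without OIR replicate 2 (adjusted p = 0.0574), that of Cntn4 without OIR replicate 2, OIR replicate 3 or Ctrl replicate 1 (0.195, 0.142 and 0.218), that of Usp29 without any 1 of the 6 samples, and that of Nrsn1 without each of 5 of them. The calls of Cntn4, Usp29 and Nrsn1 were also lost with at least 2 markers (0.0649, 0.0998 and 0.0821), with at least 4 markers (0.0815, 0.102 and 0.0795) and in replicates 2 and 3 alone (0.152, 0.0633 and 0.13), the last of which also lost Faim2 (0.0523).

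Among the genes that rose, Slc16a3 was at 116, 98.4 and 95.7 CPM in OIR and at 27.1, 30.6 and 35.1 CPM in Ctrl. The log2 fold change was 1.79 ± 0.25 (adjusted p = 0.00548, edgeR), and the call held without any 1 of the 6 samples but not in replicates 2 and 3 alone (0.0645), a setting chosen after seeing the data. Ndrg1 was at 119, 157 and 150.4 CPM against 45.8, 44.2 and 43.9 CPM, a log2 fold change of 1.57 ± 0.22 (adjusted p = 0.00548, edgeR) that was called in all 18 alternative settings. Both genes had narrow and well separated groups. Hmgb2 was at 95.8, 91.8 and 150.4 CPM against 34.7, 34.0 and 17.6 CPM (log2 fold change 1.76 ± 0.29, adjusted p = 0.0217, edgeR), and the call was lost without OIR replicate 3 (0.0795) or Ctrl replicate 3 (0.061). Actg1, whose coding sequence closely resembles that of Actb so that reads may be shared, was at 717, 1009.8 and 1132 CPM against 348, 422 and 514 CPM (log2 fold change 1.12 ± 0.20, adjusted p = 0.0429), and was called without OIR replicate 1 but not without any other sample (0.059 to 0.214), nor with at least 2 markers (0.0822) or at least 4 (0.0655).

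**Figure D3:**
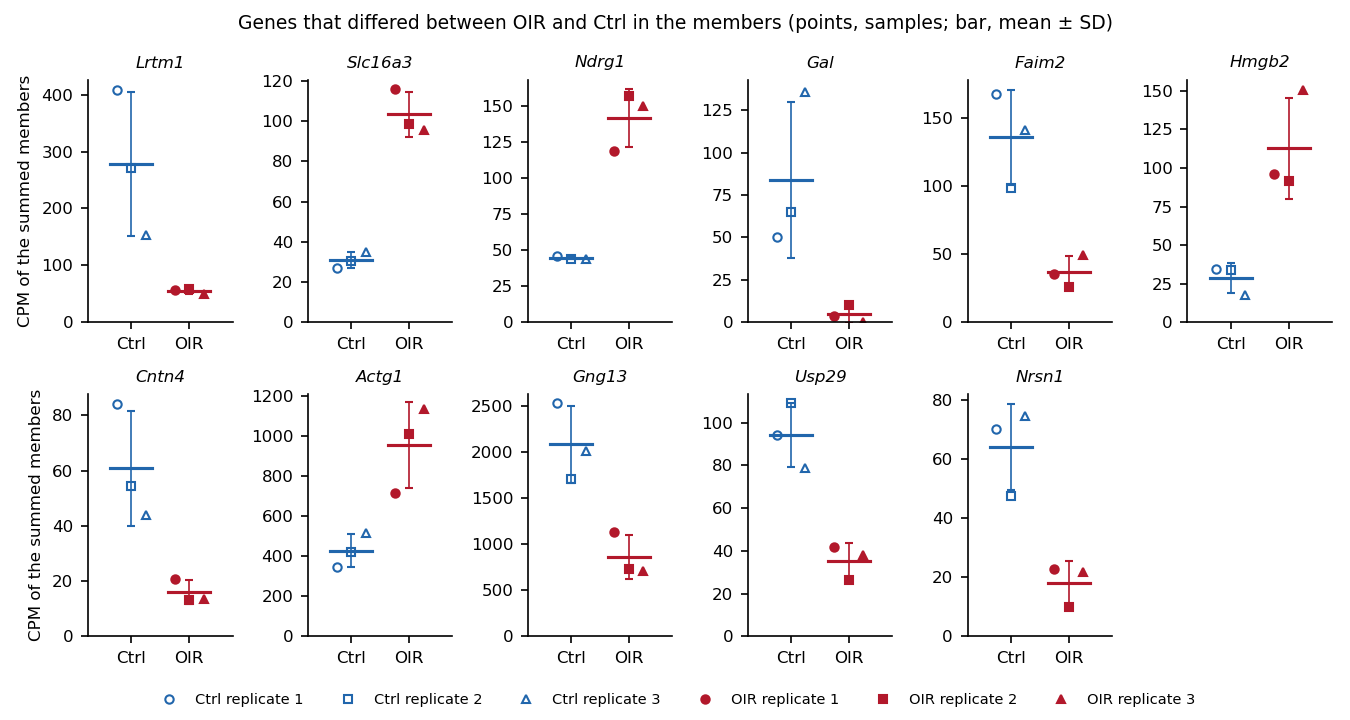
Levels of the 11 genes that differed between OIR and Ctrl (y axis, CPM of the summed members; x axis, group), with each sample as a point and the mean ± SD of each group. The groups do not overlap for any of these genes, and Ctrl replicate 1 has the highest Lrtm1, Faim2, Cntn4 and Gng13 values.

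The promoters of Slc16a3 and Bnip3 are shown because both genes are known targets of the hypoxia-inducible factor (HIF), whose binding core ACGTG stands in the window from 250 bases before to 50 bases after their RefSeq starts (GRCm38.p6). Capitals mark ACGTG on the printed strand and CACGT, which is ACGTG on the other strand. In Bnip3 these matches overlap in CACGTG, which is also the E-box bound by clock factors. In Slc16a3 (chr11:120948817-120949116, plus strand) the matches begin 27 and 14 bases before the start, and in Bnip3 (chr7:138909457-138909756, minus strand) 108 and 107 bases before it. A match is a description and not a measured site, and 19.6% of all 32851 promoters hold one on either strand. By gene, where any promoter of a gene may hold the match, the share was 21.8% of 27025 genes. It was 31.3% of the 4538 genes tested that had a promoter.
Slc16a3: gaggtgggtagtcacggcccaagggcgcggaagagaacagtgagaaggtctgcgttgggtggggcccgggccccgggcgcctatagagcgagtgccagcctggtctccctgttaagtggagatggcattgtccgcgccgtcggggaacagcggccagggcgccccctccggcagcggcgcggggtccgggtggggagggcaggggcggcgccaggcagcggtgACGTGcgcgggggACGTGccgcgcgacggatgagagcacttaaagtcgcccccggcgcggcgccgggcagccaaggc
Bnip3: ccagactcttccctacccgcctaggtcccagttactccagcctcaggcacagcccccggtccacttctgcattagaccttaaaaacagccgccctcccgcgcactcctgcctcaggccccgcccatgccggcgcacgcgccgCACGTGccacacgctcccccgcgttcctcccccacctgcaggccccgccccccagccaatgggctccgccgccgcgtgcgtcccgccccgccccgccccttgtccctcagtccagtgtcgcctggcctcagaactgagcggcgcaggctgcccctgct

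Of a list of 29 hypoxia-responsive genes, 22 were tested in the members, 17 had a positive fold change, and Ndrg1 alone was called, against the 0.0700% of all genes that were called higher. Slc16a3, which was also called higher, is not on this list. The list's median log2 fold change was 0.32, beside −0.00 for all genes tested, and stayed between 0.18 and 0.43 in the alternative settings. All OIR values lay above all Ctrl values for 6 of the 22 (27.3%), against 8.12% of all genes tested. Bnip3, a mitophagy receptor, was at 382, 318 and 339 CPM in OIR and at 189, 174 and 184 CPM in Ctrl, with a log2 fold change of 0.89 ± 0.18 that missed the threshold (adjusted p = 0.0652, edgeR). The oxygen sensor gene Egln1 was at 247, 252 and 156 CPM against 97.2, 95.3 and 158 CPM (adjusted p = 0.166), and OIR replicate 3 overlapped with Ctrl replicate 3. Hk2, the hexokinase of the list, was at 76.8, 82.0 and 38.3 CPM against 32.6, 3.4 and 17.6 CPM (adjusted p = 0.25, edgeR). Vegfa, the endothelial growth factor gene, had a fold change near 0 on the log2 scale (−0.10, adjusted p = 0.975), and its OIR values of 141, 151 and 60.2 CPM spanned those of Ctrl.

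The glycolysis list partly repeats the hypoxia list, and it also leaves out Slc16a3, the lactate exporter gene that was called higher. Of its 20 tested genes, 15 had a positive fold change, none was called, and the median was 0.22. It was 0.01 without OIR replicate 1 and 0.07 without Ctrl replicate 2. Eno1 was at 1818, 1311 and 1589 CPM in OIR and at 1006, 1116 and 1326 CPM in Ctrl (log2 fold change 0.43 ± 0.19, adjusted p = 0.563, edgeR). Pgk1, with OIR values of 948, 764 and 839.8 CPM above Ctrl values of 608, 708 and 672 CPM, was not called either (0.33 ± 0.17, adjusted p = 0.643).

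The ON transduction cascade is the machinery that turns glutamate into a light response in these cells. Of its 13 tested genes, 11 had a negative fold change and Gng13 was called, against 0.123% of all genes called lower, with a median of −0.32 beside −0.00 for all genes. The median was −0.58 without OIR replicate 1 and −0.21 without Ctrl replicate 1. Gng13 was at 1137, 731 and 708 CPM in OIR and at 2529, 1705 and 2007 CPM in Ctrl. Each OIR value lay below the lowest Ctrl value, and the log2 fold change was −1.31 ± 0.24 (adjusted p = 0.0429, edgeR). The call was lost without OIR replicate 2, OIR replicate 3 or Ctrl replicate 3 (adjusted p = 0.25, 0.199 and 0.109), and with at least 4 markers (0.0668). The 3′ part of Gng13 (chr17:25717171-25719406, plus strand) overlaps Chtf18 on the opposite strand. The study named a single-cell 3′ library kit and Cell Ranger and did not state how strand was used. The part of Chtf18 reads in these counts was not tested. Trpm1, the channel at the end of the cascade, was at 496, 370.5 and 320 CPM in OIR and at 844, 674 and 689 CPM in Ctrl, without overlap, but missed the threshold (log2 fold change −0.93 ± 0.21, adjusted p = 0.0971), which it passed in 7 of the 18 alternative settings. Pcp2 was at 828, 367 and 427 CPM against 1549.6, 565 and 777 CPM, and Nyx, the nyctalopin gene, at 73.0, 72.1 and 54.7 against 105, 136 and 65.9 CPM, both with overlapping groups (adjusted p = 0.496 and 0.435). The G protein subunit gene Gnb3 and the regulator gene Rgs7 had positive values of 0.23 and 0.46 (adjusted p = 0.764 and 0.604), with every OIR value above every Ctrl value, so that 2 of the 13 genes (15.4%) lay apart in each direction, against 8.12% of all genes tested higher and 5.71% lower. The receptor Grm6 had a log2 fold change of −0.15 (adjusted p = 0.885), with 836, 721 and 744 CPM in OIR and 874, 773 and 834 CPM in Ctrl.

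Of the 15 tested genes of the pan-bipolar list, which shares several genes with the cascade, 4 had positive and 11 negative fold changes, Lrtm1 and Gng13 were called lower, against 0.123% of all genes tested, and the median was −0.15 (−0.22 to −0.1 with 1 sample left out). The transcription factors Otx2 and Isl1 were not called, with log2 fold changes of 0.30 and 0.04. Scgn, a calcium-binding protein, was at 37.9, 26.2 and 71.1 CPM in OIR and at 86.1, 102 and 70.3 CPM in Ctrl (adjusted p = 0.255, edgeR). Cabp5 was at 979, 895 and 966 CPM against 1479, 1201 and 1194 CPM, without overlap (log2 fold change −0.50 ± 0.18, adjusted p = 0.38). Because Gng13, Trpm1, Pcp2 and Hlf differed between the members with and without Htr3a and Sox6, the fit was repeated on the members with Htr3a or Sox6, a setting chosen after seeing the data. There Gng13 fell by 1.39, Trpm1 by 1.01 and Hlf by 1.02 on the log2 scale, each past the threshold (adjusted p = 0.0107, 0.0243 and 0.0224, edgeR). Pcp2 had a log2 fold change of −0.90 there and was not called (adjusted p = 0.342). In this setting 12 genes were called higher and 20 lower, all 11 genes of the main comparison among them. These members still mixed cells with both genes and cells with either alone, so the part of the subset mix was not tested.

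The clock list holds core clock genes and their outputs. Of its 11 tested genes, 10 had a negative fold change, none was called, and the median was −0.50, staying between −0.64 and −0.29 in the alternative settings. Hlf was at 476, 603 and 427 CPM in OIR and at 979.6, 820.1 and 984 CPM in Ctrl. The groups were well apart, and the log2 fold change of −0.94 ± 0.18 just missed the threshold (adjusted p = 0.0582, edgeR), which it passed in 9 of the 18 alternative settings. Dbp, another output factor of the same family, was at 140.3, 85.2 and 71.1 CPM against 316, 177 and 180 CPM (−1.20 ± 0.29, adjusted p = 0.122). Its value ranged from −1.68 to −0.74 with 1 sample left out, and it passed the threshold in 5 of the 18 alternative settings. The repressor gene Nr1d1 was at 46.5, 55.7 and 32.8 CPM against 119, 78.3 and 74.6 CPM (−1.15 ± 0.27, adjusted p = 0.104), also without overlap, and Nr1d2 had a log2 fold change of −0.80 (adjusted p = 0.379). Arntl, the clock activator, was the member of the list with a positive value (0.36, adjusted p = 0.757). For 5 of the 11 (45.5%) every OIR value lay below every Ctrl value, against 5.71% of all genes tested. The time of day of tissue collection was not given for either group, and its part in these values was not tested.

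**Figure D4:**
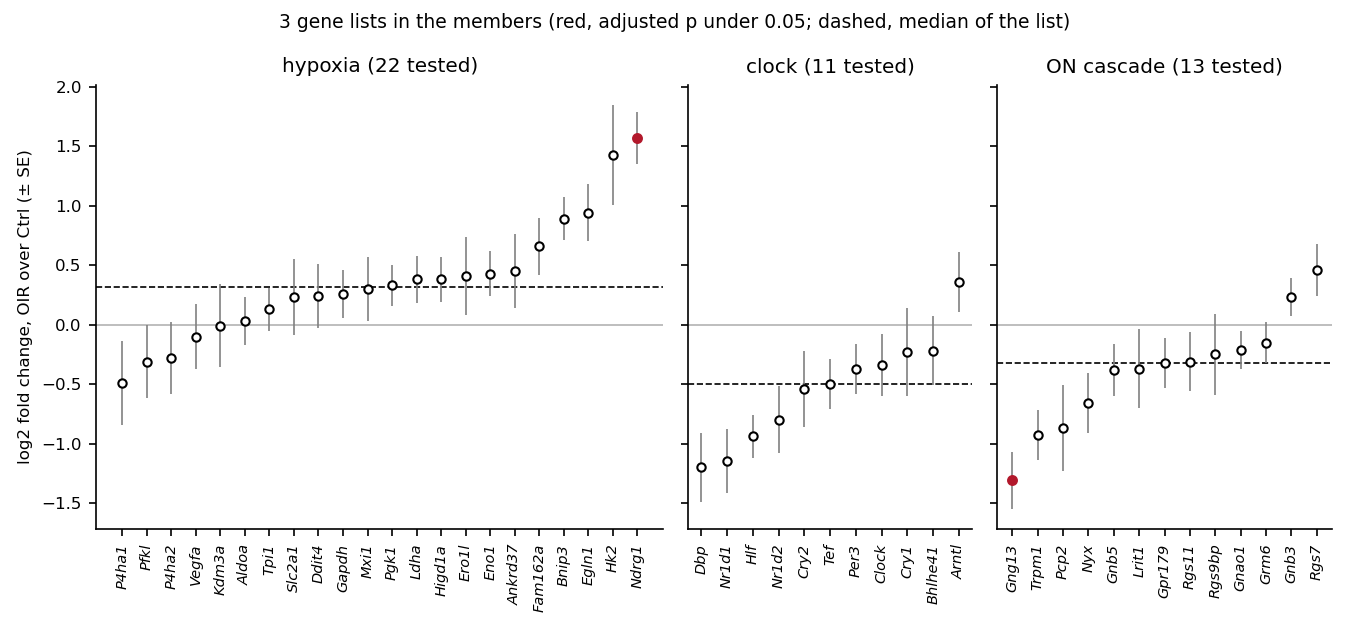
Fitted log2 fold changes of the tested genes of the hypoxia, clock and ON cascade lists in the members (y axis, OIR over Ctrl; bars, SE; red, adjusted p under 0.05; dashed line, median of the list). The medians are 0.32, −0.50 and −0.32, and Ndrg1 and Gng13 are the genes past the threshold.

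Genes of the output synapse had small fold changes. Of 21 tested genes of the ribbon synapse list, 18 had negative values and none was called (median −0.23), and this median was 0.03 without Ctrl replicate 1. Sv2b, a synaptic vesicle protein, was at 172, 164 and 112 CPM in OIR and at 235, 208 and 180 CPM in Ctrl (adjusted p = 0.461, edgeR), and the vesicle GTPase Rab3a had a log2 fold change of −0.34 (adjusted p = 0.617). Among 16 tested receptors and channels, 13 had negative values and none was called (median −0.27, ranging from −0.34 to −0.11 with 1 sample left out). Gabrr2, a subunit of the GABA receptor through which amacrine cells inhibit bipolar terminals, was at 289, 239 and 150.4 CPM against 571, 316 and 378 CPM (−0.95 ± 0.27, adjusted p = 0.224). The sodium channel Scn2a had a log2 fold change of −0.85 (adjusted p = 0.381). With 1 sample left out, Gabrr2 ranged from −1.25 to −0.58 and Scn2a from −1.1 to −0.48. Gabrr2 passed the threshold in 4 of the 18 alternative settings.

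Genes of the adhesion and guidance list were divided, with 9 positive and 10 negative values among 19 tested, none called and a median of −0.01. Cntn4, the contactin gene that was called lower, is not on this list. Kirrel3 was at 143, 134 and 153 CPM in OIR and at 53.5, 126 and 52.7 CPM in Ctrl (0.95 ± 0.28, adjusted p = 0.255, edgeR), and it was higher in the members with neither Htr3a nor Sox6. In the fit on members with Htr3a or Sox6, Kirrel3 rose by 1.87 on the log2 scale (adjusted p = 0.0319). The semaphorin receptor Plxna2 had a log2 fold change of 1.20 (adjusted p = 0.265), and of 0.59 without Ctrl replicate 1. Cntn5, a contactin, was at 140.3, 85.2 and 142 CPM against 321, 248 and 162 CPM (−1.06 ± 0.26, adjusted p = 0.136). Among 6 tested markers of other bipolar types, 3 were positive, and none was called (median −0.09, with a range of −0.97 to 0.90 in the alternative settings). Nnat, encoding neuronatin, was at 307, 557 and 566 CPM against 139, 269 and 162 CPM (1.3 ± 0.26, adjusted p = 0.0652), and stood at 465 CPM in the members with neither Htr3a nor Sox6 and at 114 CPM in those with both. It was called higher in 12 of the 18 alternative settings, including the members with Htr3a or Sox6 (1.73, adjusted p = 0.0107). In OFF cone bipolar cells Nnat was at 1241 to 2162 CPM. Reln, the reelin gene, was at 71.1, 128 and 57.4 CPM against 162, 184 and 158 CPM (−1.07 ± 0.24, adjusted p = 0.0975).

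All 13 mitochondrially encoded genes had negative fold changes (median −0.51, ranging from −1.09 to −0.1 with 1 sample left out), and none was called. mt-Nd4l was at 213, 161 and 148 CPM in OIR and at 293, 299 and 285 CPM in Ctrl (−0.76 ± 0.20, adjusted p = 0.166, edgeR), and mt-Cytb had a log2 fold change of −0.57 (adjusted p = 0.643). The mt-Cytb value ranged from −0.99 to −0.22 with 1 sample left out, and each of these genes passed the threshold in 1 of the 18 alternative settings. The summed level of the 13 genes was 73445, 33979 and 31794 CPM in OIR and 91124, 44094 and 41904 CPM in Ctrl, so that both replicate 1 samples were high in either group. Nuclear oxidative phosphorylation genes had 20 positive and 54 negative values among 74 tested (median −0.09), and ribosomal protein genes 46 and 31 among 77 (median 0.03), with no call in either list. Rps27l and Rpl10a had the lowest p of the ribosomal genes, with log2 fold changes of 0.79 and 0.47 (adjusted p = 0.224 and 0.386).

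No gene was called in the stress and immune lists. Heat shock and unfolded protein genes had 7 positive and 9 negative values (median −0.14, and −0.33 without Ctrl replicate 1 and 0.01 without Ctrl replicate 3), immediate early genes 4 and 4 (median 0.07, but 1.1 without Ctrl replicate 1 and −0.22 without Ctrl replicate 2), metallothionein and antioxidant genes 7 and 7 (median 0.01), and cholesterol synthesis genes 8 and 1 (median 0.16, and 0.04 to 0.27 with 1 sample left out). Mt3, a metallothionein of the nervous system, was at 186, 177 and 194 CPM in OIR and at 217, 282 and 329 CPM in Ctrl (−0.57 ± 0.19, adjusted p = 0.357, edgeR). Jun and Btg2 had log2 fold changes of 0.82 and 0.45 (adjusted p = 0.396 and 0.57). Of 23 interferon and MHC class I genes, 2 passed the filter on low counts, and of 23 cell death and inflammasome genes, 4 did, with 1 and 1 and with 1 and 3 positive and negative values. Dab2ip, which encodes the signalling protein AIP1 on which the study centred, was at 135, 213 and 150.4 CPM in OIR and at 194, 187 and 114 CPM in Ctrl. The groups overlapped, and the difference was not detectable at this depth (−0.13 ± 0.23, adjusted p = 0.952).

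RNA of other cell types was measured beside these results. The 15 rod genes summed to 7806, 3774 and 5876 CPM in OIR members and to 10585, 5639 and 5080 CPM in Ctrl members, Gngt1 being the most abundant, and 14 of the 15 had negative fold changes (median −0.20, and 0.40 without Ctrl replicate 1) with none called. The 10 Müller glia genes summed to 924, 384 and 350.1 CPM against 930.3, 388 and 250.3 CPM, Apoe being the most abundant, and their 4 tested genes had a median of −0.07. Sox9, a glial transcription factor, was at 43.6, 32.8 and 32.8 CPM in OIR and at 25.7, 20.4 and 8.78 CPM in Ctrl (adjusted p = 0.571, edgeR). The 2 tested cone genes and the 2 tested crystallins were not called, with medians of −0.38 and −1.03, nor were the 1 tested rod bipolar gene and the 1 tested horizontal cell gene. The crystallin Cryab was at 55.0, 36.1 and 10.9 CPM against 181, 61.3 and 22 CPM (adjusted p = 0.379). No amacrine gene passed the filter, and Tfap2a, Slc32a1 and C1ql2 had no UMI in any member. Among 5 further type 5 markers, 2 were tested and none called (median −0.24). Members had median rod shares of 0.284% to 0.658%. In the members with at most 2% of rod RNA, Gng13 and Usp29 had log2 fold changes of −1.23 and −1.34, beside −1.31 and −1.38 in all members, and were not called (both adjusted p = 0.0534), whereas the other 9 genes were.

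The third comparison asked whether the members responded to OIR differently from rod bipolar cells (1558 cells) and OFF cone bipolar cells (449 cells) of the same samples, with each sample as a block. Rod bipolar cells numbered 448, 112 and 116 in OIR and 622, 132 and 128 in Ctrl. OFF cone bipolar cells numbered 121, 20 and 35 in OIR and 225, 27 and 21 in Ctrl, so that most sums of the latter rest on few cells. Against rod bipolar cells, 42 of 9773 genes (0.430%) had a different change, 14 with a higher and 28 with a lower value in the members. Against OFF cone bipolar cells, 29 of 6234 genes (0.465%) did, 17 higher and 12 lower. DESeq2 called 8 and 5 genes in these comparisons, all of them among those called by edgeR.

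Lrtm1 was among the genes with the lowest p in both comparisons. In rod bipolar cells it was at 533, 1021 and 591 CPM in OIR and at 701, 881 and 782 CPM in Ctrl, and in OFF cone bipolar cells at 392, 405 and 335 against 643, 492 and 513 CPM. The changes within those classes were not called (log2 fold changes −0.20 and −0.60). The change in the members minus that in rod bipolar cells was −2.19 ± 0.27 on the log2 scale (adjusted p = 1.32e-05, edgeR), and minus that in OFF cone bipolar cells −1.92 ± 0.24 (adjusted p = 3.38e-05). Both calls were lost with at least 2 markers (0.103 and 0.0928), and the latter in replicates 2 and 3 alone (0.145). Cntn4 behaved alike, with differences of −1.90 (adjusted p = 0.00126) and −1.81 (adjusted p = 0.00181), and rod bipolar levels of 352 to 441 CPM in OIR and 374 to 482 CPM in Ctrl. Trpm1 also differed from both (−0.99 and −0.97, adjusted p = 0.00849 and 0.0315), with rod bipolar levels of 3381, 4414 and 4297 CPM in OIR and 2951, 4414 and 4018 CPM in Ctrl. Gng13 differed from OFF cone bipolar cells (−1.57 ± 0.24, adjusted p = 0.000317), but its difference from rod bipolar cells, in which it was at 3782 to 4979 CPM in OIR and 4411 to 8218 CPM in Ctrl, was not called (−0.70, adjusted p = 0.276).

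**Figure D5:**
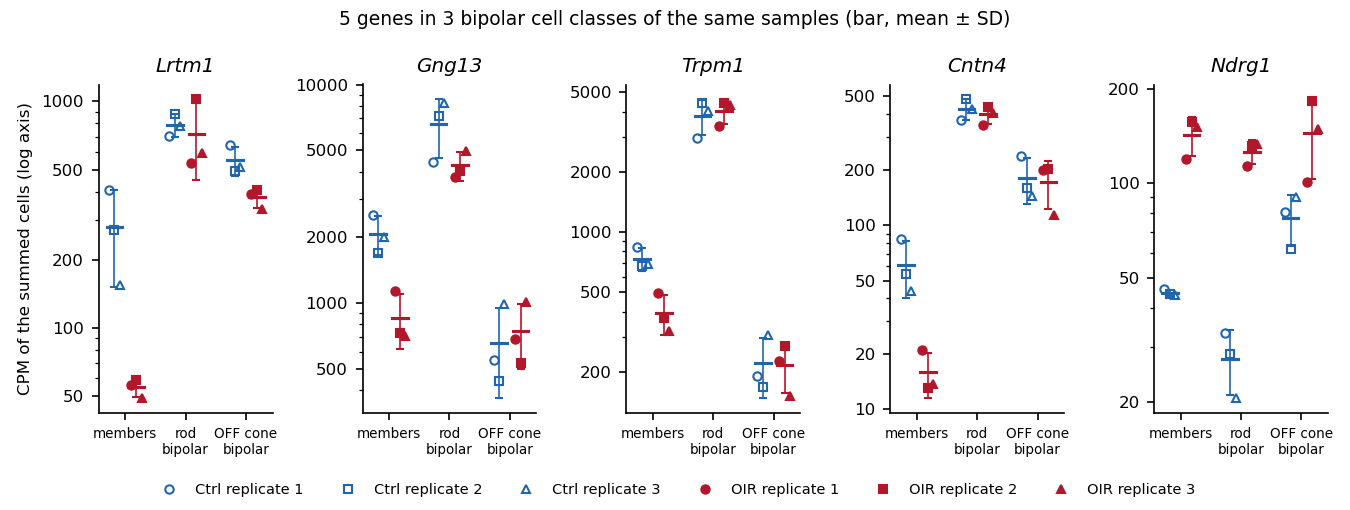
Levels of 5 genes (y axis, CPM of the summed cells, log axis) in the members, rod bipolar cells and OFF cone bipolar cells of the same samples, with the mean ± SD of each group (red filled, OIR; blue open, Ctrl). In rod bipolar cells the groups overlap for Lrtm1, Cntn4, Trpm1 and Gng13, in OFF cone bipolar cells they overlap for Cntn4, Trpm1 and Gng13 but not for Lrtm1, and for Ndrg1 every OIR value lies above every Ctrl value in all 3 classes.

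Ndrg1 and Slc16a3, which rose in the members, and Bnip3, which missed the threshold there, had positive fold changes in the other classes. Ndrg1 was called in rod bipolar cells, with 113, 131 and 133 CPM in OIR and 33.4, 28.6 and 20.7 CPM in Ctrl (log2 fold change 2.04 ± 0.18, adjusted p = 8.33e-05, edgeR), and not in OFF cone bipolar cells (0.73, adjusted p = 0.438). Its difference between the members and either class was not called (adjusted p = 0.72 and 0.356). Slc16a3 was called in rod bipolar cells (1.22, adjusted p = 0.0299) and Bnip3 in both rod bipolar (1.26, adjusted p = 0.00155) and OFF cone bipolar cells (1.19, adjusted p = 0.0159). Of the 11 genes called in the members, 5 were also called among 134 in rod bipolar cells (Slc16a3, Ndrg1, Hmgb2, Faim2 and Usp29), and Hmgb2 was called among 11 in OFF cone bipolar cells. The classes came from the same samples, so these calls are not independent, and 1.53% and 0.248% of the genes tested were called in those classes.

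For Fgf11, Ly6h and Sulf2 the change was called in rod bipolar cells and not in the members. Fgf11, a fibroblast growth factor homologous factor, was at 102, 62.3 and 60.2 CPM in OIR members and at 52.1, 74.9 and 57.1 CPM in Ctrl members. In rod bipolar cells it was at 42.7, 62.8 and 59.3 CPM against 4.78, 7.62 and 4.88 CPM, and the difference was −2.74 ± 0.37 (adjusted p = 6.28e-05, edgeR). Ly6h, a modulator of nicotinic receptors, had a like pattern, with 389.7, 429 and 459.5 against 338, 504 and 553 CPM in the members and 70.6, 121 and 182 against 25.8, 38.1 and 35.4 CPM in rod bipolar cells (−1.85, adjusted p = 1.32e-05). Sulf2, a heparan sulfatase, was at 356, 377 and 331 against 260.3, 228 and 193 CPM in the members and at 59.5, 92.9 and 60.2 against 16.2, 20.9 and 12.2 CPM in rod bipolar cells (difference −1.48, adjusted p = 0.000388). In the other direction, Tmeff1 was at 19.9, 42.6 and 65.6 CPM in OIR members and at 2.78, 10.2 and 17.6 CPM in Ctrl members, and at 14.8, 12 and 15.0 against 29.9, 64.7 and 63.5 CPM in rod bipolar cells (difference 4.01, adjusted p = 1.5e-05). Tmeff1 and Pcp4l1 were called lower in rod bipolar cells, and neither passed the filter on low counts in the members, whereas Tmsb10 and Fos were called in neither class. The actin-binding gene Tmsb10 differed by 1.20 (adjusted p = 0.000156), Pcp4l1 by 3.29 (adjusted p = 0.000388) and the immediate early gene Fos by 1.48 (adjusted p = 0.00091). In the members with Htr3a or Sox6, the differences for Tmsb10 and Pcp4l1 were 0.64 and 1.69 and no longer called (adjusted p = 0.314 and 0.699), as with at least 4 markers (0.68 and 1.56, adjusted p = 0.361 and 0.759), and that for Fos was lost without OIR replicate 1 (0.0851).

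Against OFF cone bipolar cells, Gm4792 (−1.15, adjusted p = 5.07e-05, edgeR) and BC030499 (−1.52, adjusted p = 0.000484) were lower in the members' change, and Scg2, a secretogranin (1.40, adjusted p = 0.000308), and the carbonic anhydrase Car2 (1.21, adjusted p = 0.00133) were higher. Scg2 was at 301, 370.5 and 326 CPM in OIR members and at 334, 299 and 176 CPM in Ctrl members, and at 592, 533 and 492 against 1088, 1949 and 1008 CPM in OFF cone bipolar cells. Apoe (2.66, adjusted p = 5.07e-05) and Dapl1 (3.44, adjusted p = 0.000228) differed too. In OFF cone bipolar cells Apoe was at 137, 27.0 and 76.2 CPM in OIR and at 615, 51.3 and 513 CPM in Ctrl. The 10 Müller glia genes, of which Apoe is 1, summed there to 517, 351 and 377 CPM in OIR and 1623, 549 and 1746 CPM in Ctrl, and their part in these differences was not tested. The calls of Car2 and BC030499 were lost without OIR replicate 1 (adjusted p = 0.0598 and 0.0581), those of BC030499 and Dapl1 without Ctrl replicate 1 (0.126 and 0.0712), and that of Scg2 with at least 2 markers (0.0928). DESeq2 did not call Apoe, BC030499 or Car2 (adjusted p = 1.000, 0.314 and 0.184), and Apoe was not called with at least 2 markers (0.146). The calls of Apoe and Dapl1 were lost with no upper limit on detected genes (0.153 and 0.317) and in replicates 2 and 3 alone (0.302 and 0.717), as were those of BC030499 and Car2 (0.717 and 0.298). The count of genes was 9 without OIR replicate 1, 8 without Ctrl replicate 1 and 16 without OIR replicate 3, against 29 with all samples.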

How the data were processed

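The authors deposited 6 matrices of raw counts, with UMIs per gene (31053 genes) and barcode, and the headers give software version 3.1.0 and the labels build mm10. Whether strand was used in counting is not given in the sources used here. Mouse gene positions were taken from GENCODE vM21 and promoters from RefSeq (GRCm38.p6). No column was left unassigned. Bipolar cells had at least 3 of 10 bipolar genes and no Tfap2b or Arr3. Rod bipolar cells had Sebox and at least 3 genes of a rod bipolar list with Prkca, Vstm2b and Car8, and OFF cone bipolar cells had Grik1 and at least 3 of Grik1, Vsx1, Tacr3, Fezf2, Otor and Lhx3, both without Kcng4, Tfap2b, Arr3 and the other class's required gene. UMIs were summed per sample and class and tested with edgeR 4.0.16 (filterByExpr, TMM, glmQLFit, glmQLFTest), SEs being the fold change over the square root of F. DESeq2 1.42.0 was an alternative. The study compared single cells by a rank-sum test, whereas samples were the replicates here, and p-values measure the spread between samples of pooled mice. Each sample's members held 227757 to 1440383 UMIs. Doublets were not removed in the main comparison. Removing the highest Scrublet scores (0.8% per 1000 barcodes) took out 33 members. Named genes were the rule genes, the called genes without overlap (up to 12 a direction), up to 4 genes of each list and 4 of each difference and direction with the lowest p, and Dab2ip, and some of these genes are not reported here. Vegfa, Grm6, Otx2, Isl1, Arntl, Gnb3, Rgs7, Cacna2d3 and the genes that describe the subsets and the other bipolar cells were added after their values were seen. The members and lists were chosen with earlier results of these data known.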

Additional observations from a re-analysis of the deposited data

Results flagged for a closer look

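The OIR change differed between the members and rod bipolar cells for 42 genes and between the members and OFF cone bipolar cells for 29 genes, by the tested interaction of class and group. Named by lowest p against rod bipolar cells were Tmeff1 (difference of log2 fold changes 4.01), Tmsb10 (1.20), Pcp4l1 (3.29), Fos (1.48), Ly6h (−1.85), Lrtm1 (−2.19), Fgf11 (−2.74) and Sulf2 (−1.48). Against OFF cone bipolar cells they were Apoe (2.66), Dapl1 (3.44), Scg2 (1.40), Car2 (1.21), Lrtm1 (−1.92), Gm4792 (−1.15), Gng13 (−1.57) and BC030499 (−1.52). Each difference is the change in the members minus that in the other class. Groups of 3 samples were not searched for outlying samples.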

How the results depend on the processing

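The counts of genes called higher and lower, 4 and 7, were 8 and 11 with DESeq2, 64 and 66 without a filter on low counts (15708 genes tested), 9 and 13 without the highest Scrublet scores, 39 and 56 with sex as a term, which compares the OIR samples with the lone male Ctrl sample, and 12 and 20 in the members with Htr3a or Sox6. They were 12 and 11 in replicates 2 and 3 alone, of which 6 were among the 11. These last 2 settings were chosen after seeing the data. In replicates 2 and 3 alone, and without Ctrl replicate 1, all OIR samples were male and all Ctrl samples female. Sex and group cannot be told apart there, and sex-linked genes were not left out of the counts. The higher count was 7 with at most 2% rod RNA, and the lower count was 4 with at least 4 markers. Leaving out 1 sample at a time gave 2 to 11 higher and 2 to 12 lower. All 11 genes kept their direction in all settings. With the replicate number as a replicate block the counts were 23 and 38. Samples of the same number correlated by 0.322, 0.0742 and 0.142 over 5712 genes, so the numbers were not taken to pair the samples. Genes that differed from rod bipolar cells (42) numbered 27 with at least 2 markers, 8 with DESeq2, 77 without the filter, 67 in replicates 2 and 3 alone and 26 to 62 with 1 sample left out. Those that differed from OFF cone bipolar cells (29) numbered 18, 5, 66 and 3 in those settings and 8 to 41 with 1 sample left out. The difference in share, −0.313 points, ranged from −0.842 to 0.481 with 1 sample left out and was 0.16 points of bipolar cells thinned to 2000 UMIs. Dab2ip ranged from −0.31 to 0.05 with 1 sample left out, changing sign without Ctrl replicate 1, and was 0.18 in replicates 2 and 3 alone. Of 306 list medians under an alternative, 23 moved by more than the spread between samples. The cause of these shifts was not tested. With 35 to 41 members in 4 of the samples, genes of low level could not be tested.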
